A study of Mus musculus with 12 samples.

Results

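The immediate early genes described here are 9 mouse genes: the AP-1 subunits Fos, Jun, Junb and Jund, the transcription factor Egr1, the immediate early response genes Ier2, Ier3 and Ier5, and the phosphatase gene Dusp1. The set is defined by gene symbol, with no threshold on the values, and all 9 were among the 24254 genes of the deposited expression table. RNA was sequenced from fully grown mouse oocytes arrested at the germinal vesicle stage, in 12 libraries that form 3 groups of 4. GTWT oocytes carried a gene trap in Marf1 and were injected with mRNA for wild type MARF1, an RNA-binding protein with a ribonuclease domain. GTD272 oocytes carried the same gene trap and were injected with mRNA for D272-mutated MARF1. GT oocytes carried the gene trap, and the labels do not say whether they were injected or cultured. All groups therefore share the gene trap. The mice were C57BL/6, 3 weeks old and primed with 5 IU of PMSG, a gonadotropin, 46 h before collection. Each sample held 80 pooled oocytes, and injected oocytes spent 48 h in medium with milrinone, which blocks a phosphodiesterase and holds oocytes at the germinal vesicle stage. The comparison of GTWT with GT oocytes asks what goes with wild type MARF1, and GTD272 is its counterpart with the mutated protein. In both, the effect of MARF1 cannot be told apart from those of injection and, if GT oocytes were not cultured, of culture. GTWT and GTD272 were both injected and cultured, but Marf1 was measured at a higher level in GTWT (values below). Between them, the effect of the mutation therefore cannot be told apart from that of the Marf1 level.

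Immediate early genes are transcribed soon after a cell is stimulated, without new protein synthesis, when MAP kinases and protein kinase A activate factors such as SRF with its ternary complex partners and CREB on their promoters. Their proteins are mostly transcription factors or feedback inhibitors, and many of their mRNAs are short-lived because proteins of the Zfp36 family bind AU-rich elements in the 3′ UTR. In the ovary, several of them are induced by luteinizing hormone in granulosa and cumulus cells, while a fully grown oocyte makes little new RNA and relies on stored transcripts.

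Values are FPKM, the fragments of a transcript divided by its length and by the mapped total, so levels are per length and can be set beside each other between genes. Marf1 (chr16:14109164-14159274, mm10) was measured at 13.5 to 24.1 FPKM in GTWT libraries and at 7.99 to 9.73 in GTD272 libraries, against 1.27 to 1.83 in GT libraries, and no 2 of the groups overlapped. Injected mRNA and trapped transcripts both count towards these values. Relative depth, estimated from the smallest FPKM increments of each library, lay between 55.9% and 100% of the deepest library, and 11167 to 11364 genes per library reached 1 FPKM. Small RNA genes took 15.01% to 83.95% of the FPKM sum of a library, with no order by group, and the sum over the other genes was 400732 to 405027 in GTWT, 408949 to 417085 in GTD272 and 411773 to 415672 in GT libraries. All 14 oocyte markers passed the filter on low values, and their summed level was 9530 to 9958 FPKM in GTWT, 9652 to 10258 in GTD272 and 9400 to 9657 in GT libraries. Of these markers, 7 of 14 were called in GTWT against GT, where 16.6% of all tested genes were: Gdf9, Zp1, Zp2 and Zp3 rose, and Dazl, Mos and Oosp1 fell. In GTD272 against GT, where 2.95% of all genes were called, Gdf9, Ooep, Zp2 and Zp3 rose and Dazl fell, with the calls of Zp2 and Dazl lost in 6 and 8 of 18 alternative settings. Whether the 4 libraries of a group stem from different mice or dishes is not given in the labels, so each p-value below is set against the spread among libraries, and that spread may be technical. In such bulk samples, fewer cells of a type and less RNA per cell cannot be told apart.

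Ier2, Jund, Egr1 and Dusp1 were abundant in all 3 groups, and the other members were low. Averaged over the 12 libraries, the order of the levels was Ier2 (79.5 FPKM), Jund (47.2), Egr1 (42.1), Dusp1 (34.0), Junb (3.81), Fos (2.03), Ier3 (0.528), Ier5 (0.254) and Jun (0.204). Ier2 was above Jund, Egr1 above Dusp1, Dusp1 above Junb and Fos above Ier3 in 12 of 12 libraries, and Junb was above Fos in 11 of 12. Jund was above Egr1 in 7 of 12, and this order differed by group. Jund was above Egr1 in every GTWT library and below it in every GT library, narrowly in GT replicate 3 (50.3 against 50.5 FPKM). Ier3 was above Ier5 in 8 of 12 and Ier5 above Jun in 7 of 12, so those neighbours were not separated over the 12 libraries. Within the Jun family, the abundant subunit was therefore Jund, while Jun was near the detection limit.

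**Figure D1:**
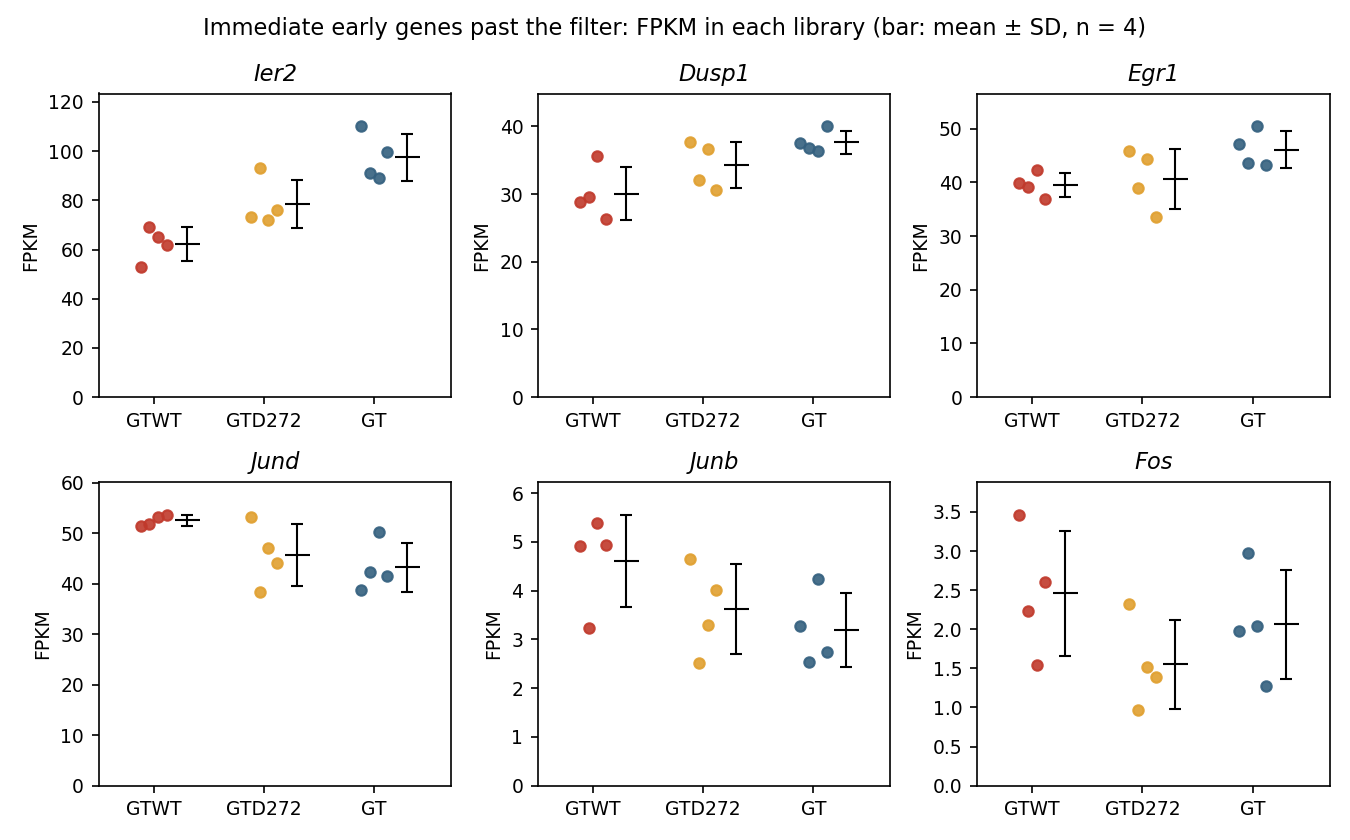
Expression in FPKM (vertical axes, starting at 0) of the 6 members that passed the filter on low values, with 1 point per library in GTWT, GTD272 and GT oocytes and bars for mean ± SD (n = 4). Ier2, Dusp1 and Egr1 were lower in every GTWT library than in every GT library, and Jund was higher in every GTWT library than in every GT library.

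Of the 9 members, 6 passed the filter of at least 1 FPKM in at least 4 libraries (Ier2, Dusp1, Egr1, Jund, Junb and Fos) and were tested with limma on log2(FPKM + 1) across 11687 genes. Ier3, Ier5 and Jun stayed below it and are described by their values and an exact test. Between GTWT and GT oocytes, Ier2 and Dusp1 fell, no member rose by the adjusted test, and the other 4 tested members did not pass it. Over all tested genes 16.6% passed in this comparison, 6.14% higher and 10.5% lower in GTWT, and the 2 of 6 members are read against that share. Of the 6, 4 (Ier2, Dusp1, Egr1 and Jund) had groups that did not overlap, against 21.9% of all tested genes (9.32% higher and 12.6% lower). The median difference of the 6 was -0.02 on the log2 scale, beside -0.01 over all tested genes, with 3 members below 0 and 3 above it. In the authors' deposited table, which comes from Cuffdiff, Ier2, Dusp1 and Jund had q-values under 0.05, 3 of 9 members against 8.95% of all listed genes. That share is over all 24254 genes, of which 11687 passed the filter on low values, so it is not matched to the members' levels. Among the 1940 genes called with the values as deposited, 63% were lower in GTWT. Of the 1967 called after quantile normalization 49.6% were lower, and of the 1989 called after rescaling to equal sums without small RNA genes 51.3% were.

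Between GTD272 and GT oocytes no member passed limma's test, where 2.95% of all genes did (1.41% higher and 1.54% lower), and between GTWT and GTD272 none passed, where 2.46% did (0.625% higher and 1.84% lower). At an unadjusted p under 0.05, limma had 1 member (Ier2) in the first of these, where 19% of all genes passed, and 2 (Ier2 and Jund) in the second, where 18.4% did. In the authors' deposited table, Ier2 was the single member with a q-value under 0.05 in each, where 3.04% and 2.52% of all 24254 listed genes had one. The median difference of the 6 tested members was -0.16 between GTD272 and GT and 0.09 between GTWT and GTD272, beside -0.01 over all genes in each. No member had groups that did not overlap between GTD272 and GT (background 13%, with 5.37% higher and 7.59% lower), while between GTWT and GTD272 Ier2 and Jun did, Ier2 alone among the 6 tested (background 10.2%, with 4.26% higher and 5.93% lower). Of the 288 genes called between GTWT and GTD272 as deposited, 74.7% were lower in GTWT, against 56.6% of the 327 called after quantile normalization and 57% of the 328 called after rescaling. The 3 comparisons share libraries, so the differences of a gene are not independent of each other and are given side by side.

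**Figure D2:**
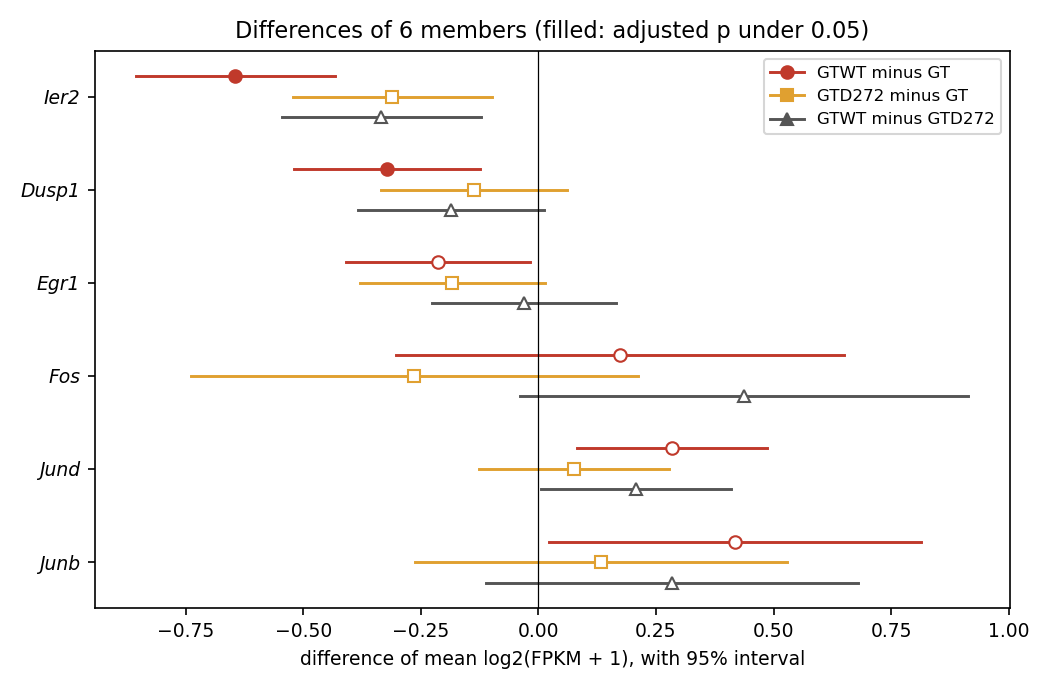
Difference of mean log2(FPKM + 1) between groups (horizontal axis) with its 95% interval for the 6 tested members, with red, orange and grey for the 3 pairs of groups named in the legend; filled symbols have an adjusted p under 0.05. Ier2 lies at -0.64, -0.31 and -0.33 in the 3 comparisons, and Ier2 and Dusp1 are filled for GTWT minus GT alone.

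Among the immediate early response genes, Ier2 (chr8:84661329-84662852), which encodes a nuclear regulator of transcription, was the most abundant member and differed most of the 6 tested between GTWT and GT. Its level was 52.9, 69.0, 65.0 and 61.7 FPKM in the 4 GTWT libraries and 73.4, 93.1, 72.2 and 76.0 in the GTD272 libraries, against 110, 91.2, 89.3 and 99.7 in the GT libraries. GTWT lay below both other groups without overlap, and GTD272 overlapped GT through its replicate 2. The mean was 62.1 ± 6.85 FPKM in GTWT, 78.6 ± 9.74 in GTD272 and 97.6 ± 9.56 in GT (SD, n = 4 each). The GTWT minus GT difference was -0.64 on the log2(FPKM + 1) scale (SE 0.10, limma adjusted p = 0.000915), lower in 4 of 4 GTWT libraries. It stayed past the threshold in all 18 alternative settings, between -0.57 and -0.70 when single libraries were left out.

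The GTD272 minus GT difference of Ier2 was -0.31 (95% interval -0.52 to -0.10, limma adjusted p = 0.105), and without GTD272 replicate 2, its highest library, it was -0.39 and passed (limma adjusted p = 0.0459). The GTWT minus GTD272 difference, which tests the 2 injected groups against each other, was -0.33 (95% interval -0.54 to -0.12, limma adjusted p = 0.0897). The authors' deposited table gave Ier2 q-values of 0.000573 for GTWT against GT, 0.0151 for GTD272 against GT and 0.0245 for GTWT against GTD272. The call of GTWT against GT was thus made by both methods, and the other calls only by the authors' method.

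Ier3 (chr17:35821711-35822911), a regulator of apoptosis and a target of NF-kappaB, was low in all groups. It was listed at 1.24, 0.398, 0.952 and 1.52 FPKM in GTWT libraries and at 0.908, 0, 0 and 0.494 in GTD272 libraries, against 0, 0, 0.436 and 0.391 in GT libraries. All 4 GTWT libraries had signal, against 2 of 4 in each other group, and GTWT overlapped both. The difference of mean FPKM did not pass an exact two-sided permutation test in any comparison (p = 0.0571 for GTWT against GT, 0.543 for GTD272 against GT and 0.114 for GTWT against GTD272), where 4 libraries against 4 cannot go below 0.0286. Without GTWT replicate 2, the only GTWT library inside the GT range, the exact p for GTWT against GT was 0.0286. Leaving it out ends the overlap, and no lower p is possible for the libraries left, so this p is not support. Leaving out any other single library did not bring the exact p under 0.05.

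Ier5 (chr1:155096365-155099636), which in human cells activates the heat shock factor HSF1, was listed at 0.119, 0.229, 0.545 and 0.292 FPKM in GTWT, at 0.130, 0.597, 0.235 and 0 in GTD272 and at 0.697, 0.0965, 0 and 0.112 in GT libraries. GTD272 and GT each held both a 0 and one of the highest values, and the 3 groups overlapped. The exact permutation p was 0.657 for GTWT against GT, 0.857 for GTD272 against GT and 0.743 for GTWT against GTD272.

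Among the AP-1 subunits, which bind DNA as Jun-Jun or Jun-Fos dimers, Jund (chr8:70697737-70700616) was the abundant one. Jund encodes a Jun protein that is made in many resting cells and is less tied to stimulation than Jun. Its level was 51.5, 52.0, 53.3 and 53.7 FPKM in GTWT and 53.2, 38.4, 47.1 and 44.2 in GTD272, against 38.8, 42.3, 50.3 and 41.6 in GT libraries. The 4 GTWT libraries lay within a narrow range and all above GT, while GTD272 overlapped both. The GTWT minus GT difference was 0.28 (95% interval 0.08 to 0.49, limma adjusted p = 0.0543) and did not pass. The authors' deposited table gave it a q-value of 0.00489, and limma's adjusted p was under 0.05 after quantile normalization (0.0323), after rescaling (0.0364), in the 8 libraries of the 2 groups alone (0.0336), and without GT replicate 3 (0.0239), GTD272 replicate 1 (0.0346) or GTD272 replicate 2 (0.0311). The GTD272 minus GT difference was 0.08 (95% interval -0.13 to 0.28, limma adjusted p = 0.719) and GTWT minus GTD272 was 0.21 (95% interval 0.01 to 0.41, limma adjusted p = 0.259).

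Junb (chr8:84976907-84978748), the Jun protein that often opposes Jun, was listed at 4.90, 3.23, 5.38 and 4.93 FPKM in GTWT and at 4.65, 2.52, 3.30 and 4.01 in GTD272, against 3.27, 2.54, 4.24 and 2.74 in GT libraries. In 3 of 4 GTWT libraries Junb was above every GT library, and GTWT replicate 2 lay inside the GT range. The GTWT minus GT difference was 0.42 (95% interval 0.02 to 0.81, limma adjusted p = 0.139), GTD272 minus GT was 0.13 (95% interval -0.26 to 0.53, limma adjusted p = 0.753) and GTWT minus GTD272 was 0.29 (95% interval -0.11 to 0.68, limma adjusted p = 0.459).

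Fos (chr12:85473899-85477270), the inducible partner of the Jun proteins, was listed at 3.47, 2.23, 1.55 and 2.60 FPKM in GTWT and at 2.33, 0.969, 1.52 and 1.38 in GTD272, against 1.98, 2.97, 2.04 and 1.28 in GT libraries. The 3 groups overlapped. Its differences were 0.17 for GTWT minus GT (95% interval -0.30 to 0.65, limma adjusted p = 0.645, and 0.04 to 0.31 with single libraries left out), -0.26 for GTD272 minus GT (95% interval -0.74 to 0.21, limma adjusted p = 0.570) and 0.44 for GTWT minus GTD272 (95% interval -0.04 to 0.91, limma adjusted p = 0.319). These intervals are the widest of the 6 tested members.

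Jun (chr4:95049034-95052222), the founding Jun protein, was listed at 0 in all 4 GTWT libraries. It was listed at 0.268, 0.307, 0.121 and 0.439 FPKM in GTD272 libraries and at 0.358, 0.496, 0 and 0.462 in GT libraries. Every GTD272 library and 3 of 4 GT libraries therefore had signal where no GTWT library did. The exact two-sided permutation p was 0.0286 for GTWT against GTD272, the smallest that 4 against 4 libraries can give, 0.143 for GTWT against GT and 0.743 for GTD272 against GT. These are 3 of 9 exact tests made for the low members. With no filter on low values and adjustment over all genes, limma's adjusted p was 0.199 for GTWT against GTD272 and 0.0642 for GTWT against GT.

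The values of Jun, Ier3, Ier5 and Fos were read as whole multiples of a smallest increment, taken as about 1 fragment. The increment was fitted to each gene's own values, and a gene was kept only where all of them lay near whole steps. Nearness to whole steps is therefore a condition of this reading and not a result. Within it, all 37 positive values came within 0.064 of a whole step. Junb was tried in the same way and gave no such increment. Summed over 4 libraries, Jun had 0 steps in GTWT, 8 in GTD272 and 11 in GT. Ier3 had 9 steps in GTWT, 3 in GTD272 and 2 in GT, and Ier5 had 9 in GTWT, 7 in GTD272 and 6 in GT. Fos had 48 steps in GTWT, 29 in GTD272 and 43 in GT. No library held more than 5 steps of Jun, Ier3 or Ier5, so a listed 0 is not evidence that the transcript was absent.

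**Figure D3:**
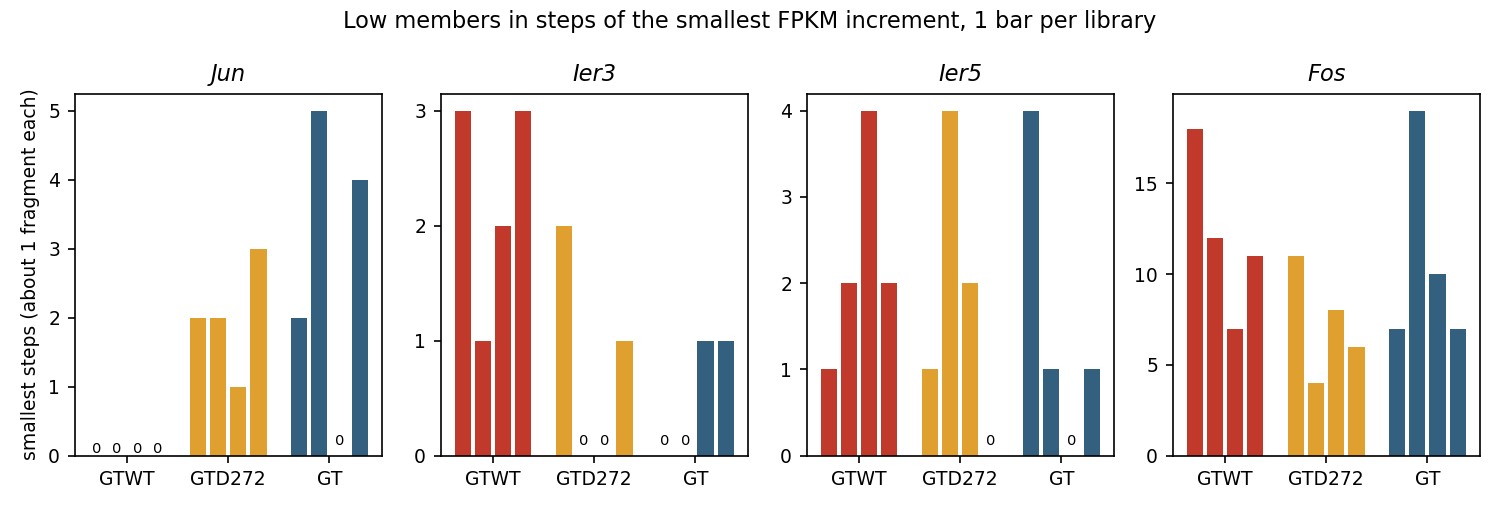
Number of smallest FPKM steps, about 1 fragment each (vertical axes, starting at 0), for Jun, Ier3, Ier5 and Fos, with 1 bar per library in GTWT, GTD272 and GT oocytes and 0 printed where a library lists none. Jun stands at 0 steps in the 4 GTWT libraries and at 1 to 3 in the GTD272 libraries, while Ier3 reaches 3 steps in GTWT, 2 in GTD272 and 1 in GT.

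Egr1 (chr18:34861205-34864956) encodes a zinc finger factor that binds GC-rich promoters and, in the pituitary, is needed for luteinizing hormone beta expression. Its level was 39.8, 39.1, 42.4 and 37.0 FPKM in GTWT and 45.8, 38.9, 44.4 and 33.6 in GTD272, against 47.1, 43.6, 50.5 and 43.1 in GT libraries. Each GTWT library lay below each GT library, with a narrow gap, and GTD272 overlapped both. The GTWT minus GT difference was -0.21 (95% interval -0.41 to -0.02, limma adjusted p = 0.128) and did not pass. GTD272 minus GT was -0.18 (95% interval -0.38 to 0.01, limma adjusted p = 0.296) and GTWT minus GTD272 was -0.03 (95% interval -0.23 to 0.17, limma adjusted p = 0.902).

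Dusp1 (chr17:26505589-26508472), a phosphatase that inactivates MAP kinases as part of the feedback on this response, fell in GTWT against GT. Its level was 28.9, 29.5, 35.6 and 26.3 FPKM in GTWT and 37.7, 32.1, 36.6 and 30.6 in GTD272, against 37.5, 36.8, 36.3 and 40.1 in GT libraries. GTWT lay below GT without overlap, though its replicate 3 came close, and GTD272 overlapped both. The mean was 30.1 ± 3.95 FPKM in GTWT, 34.3 ± 3.44 in GTD272 and 37.7 ± 1.67 in GT (SD, n = 4 each), and the GTWT minus GT difference was -0.32 (SE 0.09, limma adjusted p = 0.0291). The authors' deposited table gave a q-value of 0.0143. The GTD272 minus GT difference was -0.14 (95% interval -0.33 to 0.06, limma adjusted p = 0.457) and GTWT minus GTD272 was -0.19 (95% interval -0.38 to 0.01, limma adjusted p = 0.308).

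The call of Dusp1 was lost in 8 of 18 alternative settings, always with the same direction. Its limma adjusted p was 0.0524 after quantile normalization, 0.0618, 0.0525, 0.0502 and 0.0740 without GT replicate 1, 2, 3 or 4, and 0.0667, 0.0637 and 0.0843 without GTWT replicate 1, 2 or 4.

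The members' own sequences were looked at for features they share. Of the 9, 5 (Ier2, Ier5, Jun, Junb and Jund) have a transcript of a single exon in GENCODE M21, against 2.53% of 10489 tested genes with an annotated 3′ UTR, and 6 of 9 transcripts are shorter than the median of 2971 bases over those genes. The pentamer ATTTA, the core of AU-rich elements, occurs in the 3′ UTR of 8 of 9 members, from 1 in Jund to 5 in Ier3, and 69.0% of the tested genes have at least 1. Of the members, 7 have more ATTTA per kilobase of 3′ UTR than the median of 1.35, with 8.16 in Ier3, 5.80 in Dusp1 and 4.91 in Fos, and Ier2 has none. Of the members that fell, Ier2 has 0 copies and Dusp1 has 4. The windows below, 30 bases each with ATTTA in capitals and T for U, are shown to compare the clustered copies of Ier3, Fos and Dusp1, where copies lie close or overlap, with the single copy of Jund.
Ier3: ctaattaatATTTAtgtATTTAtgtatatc
Fos: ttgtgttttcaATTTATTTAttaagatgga
Dusp1: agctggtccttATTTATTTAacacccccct
Jund: ccgattccgccctATTTAtgtttctactcg

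Promoter windows of 250 bases before the annotated start from RefSeq, build GRCm38, were used for 7 of 9 members, and those of Ier2 and Egr1 were not used here. Motifs were searched on both strands, except TATAA, which was searched on the gene's strand alone. TGACG, the core of the cAMP response element that CREB binds, was found in Dusp1, Fos and Junb, and in 17.8% of 32851 promoters of the same length. The full palindrome TGACGTCA, which contains TGACG, was found in Dusp1, and in 1.5% of promoters. The AP-1 site TGACTCA (4.5% of promoters) and the CArG box that SRF binds (1.5%) were in none of the 7 windows, which says only that these letters are not there. CCAAT was found in Ier3, Ier5, Jun and Junb (33.8% of promoters) and TATAA in Fos, Ier3 and Ier5 (16%). The windows of Dusp1, abundant and lower in GTWT, and of Fos and Jun, both low in every group, are given 5′ to 3′ on the gene's strand with the motif matches in capitals. They lie at chr17:26508473-26508722 on the minus strand, chr12:85473640-85473889 on the plus strand and chr4:95052223-95052472 on the minus strand.
Dusp1: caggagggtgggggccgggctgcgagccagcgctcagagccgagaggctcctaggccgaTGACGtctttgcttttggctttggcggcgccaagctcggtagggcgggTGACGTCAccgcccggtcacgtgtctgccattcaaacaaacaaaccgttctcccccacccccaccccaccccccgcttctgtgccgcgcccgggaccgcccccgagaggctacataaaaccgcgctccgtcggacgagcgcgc
Fos: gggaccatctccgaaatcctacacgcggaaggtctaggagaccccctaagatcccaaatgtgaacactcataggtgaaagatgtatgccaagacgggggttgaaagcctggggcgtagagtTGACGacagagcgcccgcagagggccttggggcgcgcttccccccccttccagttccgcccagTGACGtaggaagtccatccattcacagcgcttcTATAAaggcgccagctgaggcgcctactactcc
Jun: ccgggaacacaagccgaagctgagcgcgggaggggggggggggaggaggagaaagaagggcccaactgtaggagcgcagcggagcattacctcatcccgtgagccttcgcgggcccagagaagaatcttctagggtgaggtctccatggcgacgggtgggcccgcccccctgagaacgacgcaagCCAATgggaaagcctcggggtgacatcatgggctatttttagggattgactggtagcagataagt

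In the Dusp1 window the palindrome begins 143 bases before the start and a further TGACG 191 bases before it. In Fos, TGACG begins 129 and 66 bases before the start and TATAA 33 bases before it, and in Jun the single match is CCAAT, 65 bases before the start. A match is a description of the letters and not a site in use.

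Across the 12 libraries, the tested members did not vary as 1 block. Junb and Jund had a Pearson r of 0.81, Egr1 and Dusp1 0.75 and Ier2 and Dusp1 0.66, while Ier2 and Jund had -0.81 and Ier2 and Junb -0.72. These are descriptions over libraries that share their groups and depth. The genes whose pattern was most like that of a member, by Pearson r over 12 libraries, included Nup98 (0.960) and Kpna3 (0.949) for Ier2, and were Eif3l (0.942), Sap130 (0.923) and Top2a (0.911) for Jund. For Egr1 they were Arhgap11a (0.944), Cers5 (0.908) and Bmp15 (0.901), and for Dusp1 they were 1110038F14Rik (0.917), Tcl1b3 (0.911) and Zbtb32 (0.907). For Junb they were Sap130 (0.858), Slc48a1 (0.857) and Thsd4 (0.854), and for Fos Rexo1 (0.897), Nek1 (0.890) and Adcy5 (0.858). Sap130 is on both the Junb and the Jund list. All these genes are the top of a ranking over all tested genes in 12 libraries, so a high r follows in part from the selection. No background r was computed, and Fos rests on 4 to 19 of the smallest steps a library.

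Beyond the members, 43 other immediate early genes were listed, of which 30 passed the filter. In GTWT against GT, where 16.6% of all tested genes were called, 1 rose and 3 fell, and the median difference was -0.04. Atf3, a stress-induced factor that also pairs with Jun proteins, rose and averaged 31.7 ± 5.20 FPKM in GTWT and 24.2 ± 1.53 in GTD272, against 18.02 ± 3.33 in GT (log2 difference for GTWT minus GT 0.78, limma adjusted p = 0.00160). Id2, an inhibitor of basic helix-loop-helix factors, fell by 0.77 on the log2 scale (limma adjusted p = 0.000292), with 57.9 ± 10.0 FPKM in GTWT and 76.0 ± 3.72 in GTD272, against 98.2 ± 2.31 in GT.

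Zfp36, whose product binds AU-rich elements and shortens the life of such mRNAs, averaged 14.8 ± 2.58 FPKM in GTWT and 14.6 ± 2.42 in GTD272, against 25.2 ± 1.93 in GT. It fell in both injected groups, by 0.75 in GTWT (limma adjusted p = 0.00195) and by 0.76 in GTD272 (limma adjusted p = 0.00869). Zfp36 was the single gene of the list called in GTD272 against GT, where 2.95% of all tested genes were. Ppp1r15a, which restarts translation after stress, averaged 22.5 ± 0.284 FPKM in GTWT and 29.3 ± 3.47 in GTD272, against 34.7 ± 4.13 in GT, and fell by 0.60 in GTWT against GT (limma adjusted p = 0.00104). Fosb, a paralog of Fos, did not pass in any comparison, at 10.6 ± 1.76 FPKM in GTWT, 11.6 ± 2.11 in GTD272 and 11.9 ± 0.846 in GT; it was chosen after its values were seen. Between GTWT and GTD272, where 2.46% of all tested genes were called, Id2 fell (-0.40, limma adjusted p = 0.0491). Ier5l, a relative of Ier5, rose (0.24, limma adjusted p = 0.0398). The calls of Id2 and Ier5l were lost in 15 and 12 of the 18 alternatives.

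**Figure D4:**
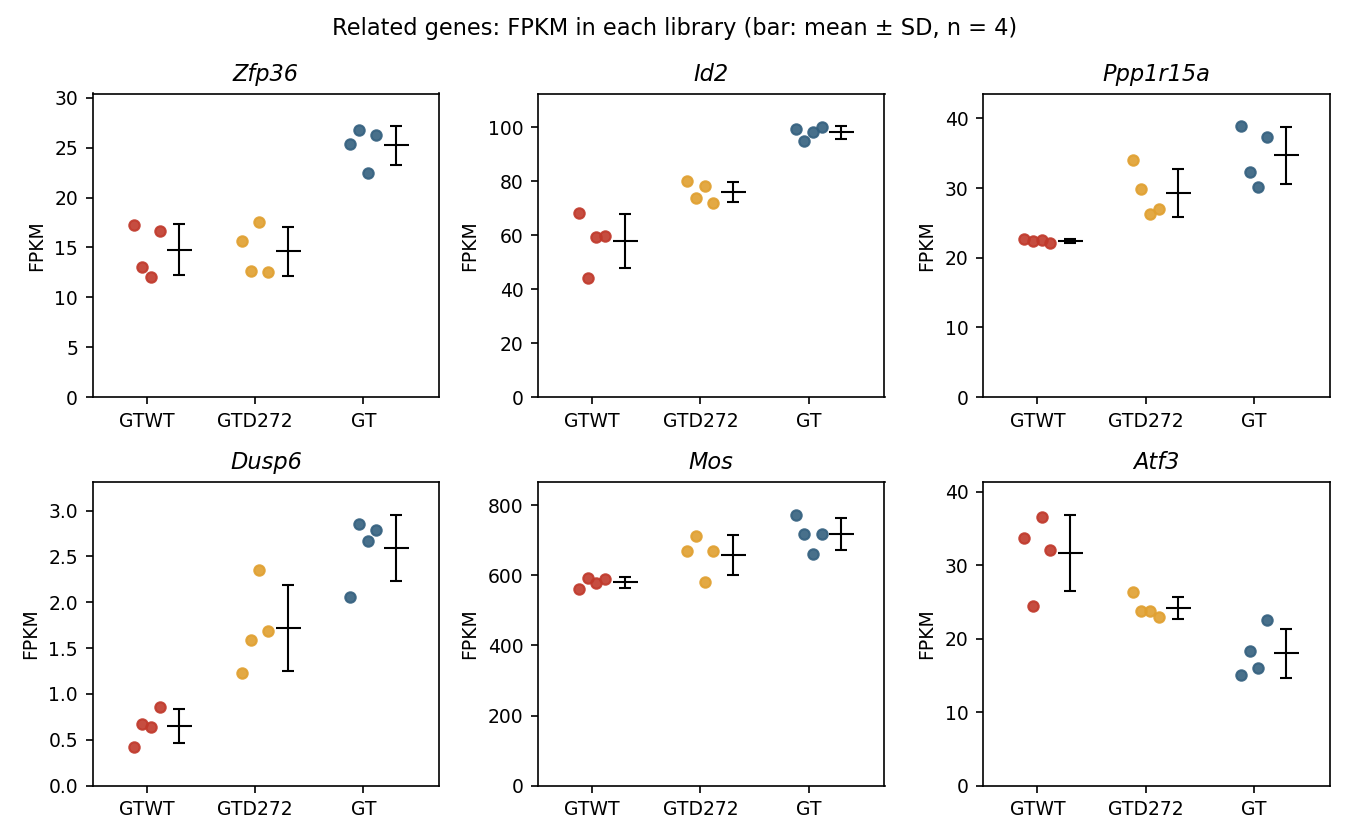
Expression in FPKM (vertical axes, starting at 0) of 6 related genes, with 1 point per library in GTWT, GTD272 and GT oocytes and bars for mean ± SD (n = 4). Zfp36 is low in both GTWT (14.8) and GTD272 (14.6) against GT (25.2), Dusp6 averages 0.651 in GTWT, 1.72 in GTD272 and 2.59 in GT, and Atf3 alone of the 6 is higher in GTWT than in GT.

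The regulators that feed into these genes are read beside the 16.6% of all tested genes called in GTWT against GT. There, 1 of 6 tested genes of the SRF and ternary complex group fell (Elk3, -0.50), and 2 of 13 CREB factors and coactivators fell, Creb1 (-0.55) and Crem (-0.50). The group medians were -0.0042 and -0.0087 on the log2 scale. Creb1, the factor that binds cAMP response elements, averaged 12.5 ± 3.34 FPKM in GTWT and 15.5 ± 0.590 in GTD272, against 18.3 ± 0.413 in GT (limma adjusted p = 0.0174). Of 14 tested AP-1 partners, Atf3 rose and Mafg, a small Maf protein, fell (-0.28), and the median was -0.02. None of these 3 lists had a call in the other 2 comparisons. Elk3 lost its call in 9 of 18 alternatives, Crem in 5 (without GT replicate 2 or 3, without GTWT replicate 2 or 4, and with no filter) and Mafg in 4 (without GT replicate 1 or 3, without GTWT replicate 2, and after quantile normalization), with adjusted p from 0.0535 to 0.0980, 0.0542 to 0.0869 and 0.0549 to 0.0729.

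Of 29 tested genes of the MAP kinase cascade, 2 rose and 3 fell in GTWT against GT, with a median of -0.08. Mos, the oocyte kinase that activates the ERK cascade during meiotic maturation, fell by 0.31 (limma adjusted p = 0.00413) and averaged 579 ± 15.05 FPKM in GTWT and 657 ± 56.1 in GTD272, against 717 ± 45.9 in GT. The p38 kinase genes Mapk11 (0.46, limma adjusted p = 0.00276) and Mapk14 (0.27, limma adjusted p = 0.0327) rose, and Mapk11 also rose in GTD272 against GT (0.41, limma adjusted p = 0.0213). The call in GTD272 did not hold without GT replicate 2, without GT replicate 3 and without GTD272 replicate 3 (0.0611 to 0.0684). Rps6ka5, a kinase of histone H3 and CREB, fell by 0.32 (limma adjusted p = 0.0426), a call lost in 14 of 18 alternatives.

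Of 9 other DUSP genes, phosphatases that share the role of Dusp1 and were all tested, 3 fell and 1 rose in GTWT against GT. Over all tested genes 16.6% were called there. The median of the list was -0.23 beside -0.01 over all genes. Dusp6, which inactivates ERK, had 0.421, 0.678, 0.644 and 0.863 FPKM in GTWT and 1.23, 1.59, 2.36 and 1.68 in GTD272, against 2.06, 2.85, 2.67 and 2.79 in GT libraries. Every GTWT library was below 1 FPKM, so Dusp6 passed the filter on low values only through GTD272 and GT libraries. Its differences are read with that limit. GTWT lay below both other groups without overlap, and the GTWT minus GT difference was -1.12 (limma adjusted p = 0.000826). Between GTWT and GTD272 it was -0.71 (limma adjusted p = 0.0398), a call lost in 14 of 18 alternatives. Dusp9 (-0.77, limma adjusted p = 0.0206) and Dusp7 (-0.23, limma adjusted p = 0.0155) also fell, and Dusp16, which acts on JNK, rose by 0.25 (limma adjusted p = 0.00599). Dusp9 lost its call without GT replicate 1, 2 or 4 and without GTWT replicate 2 or 4 (0.0523 to 0.0605), and Dusp7 after quantile normalization (0.0702). No DUSP gene of the list was called in GTD272 against GT.

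Of 11 tested proteins that bind AU-rich or related 3′ UTR elements, none rose and 4 fell in GTWT against GT, with a median of -0.35. Over all tested genes 10.5% were called lower in this comparison. Zfp36l2 averaged 144 ± 38.7 FPKM in GTWT and 209 ± 11.6 in GTD272, against 257 ± 10.2 in GT, and fell by 0.87 (limma adjusted p = 0.00212). Besides Zfp36, Pum2, a repressor that binds 3′ UTR elements, fell by 0.41 (limma adjusted p = 0.000879). In GTD272 against GT, Zfp36 and Pum2 fell, Pum2 by 0.30 (limma adjusted p = 0.0193), a call lost without GT replicate 1 or 3 and without GTD272 replicate 1 or 3 (0.0524 to 0.0645). Between GTWT and GTD272, Khsrp, which recruits decay enzymes to AU-rich mRNAs, averaged 8.42 FPKM in GTWT, against 16.8 in GTD272, and fell by 0.93 (limma adjusted p = 0.00796). Its mean in GT was 12.03 FPKM, between those groups, and neither differed from GT past the threshold (-0.48 for GTWT minus GT, limma adjusted p = 0.0521, and 0.45 for GTD272 minus GT, limma adjusted p = 0.146).

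**Figure D5:**
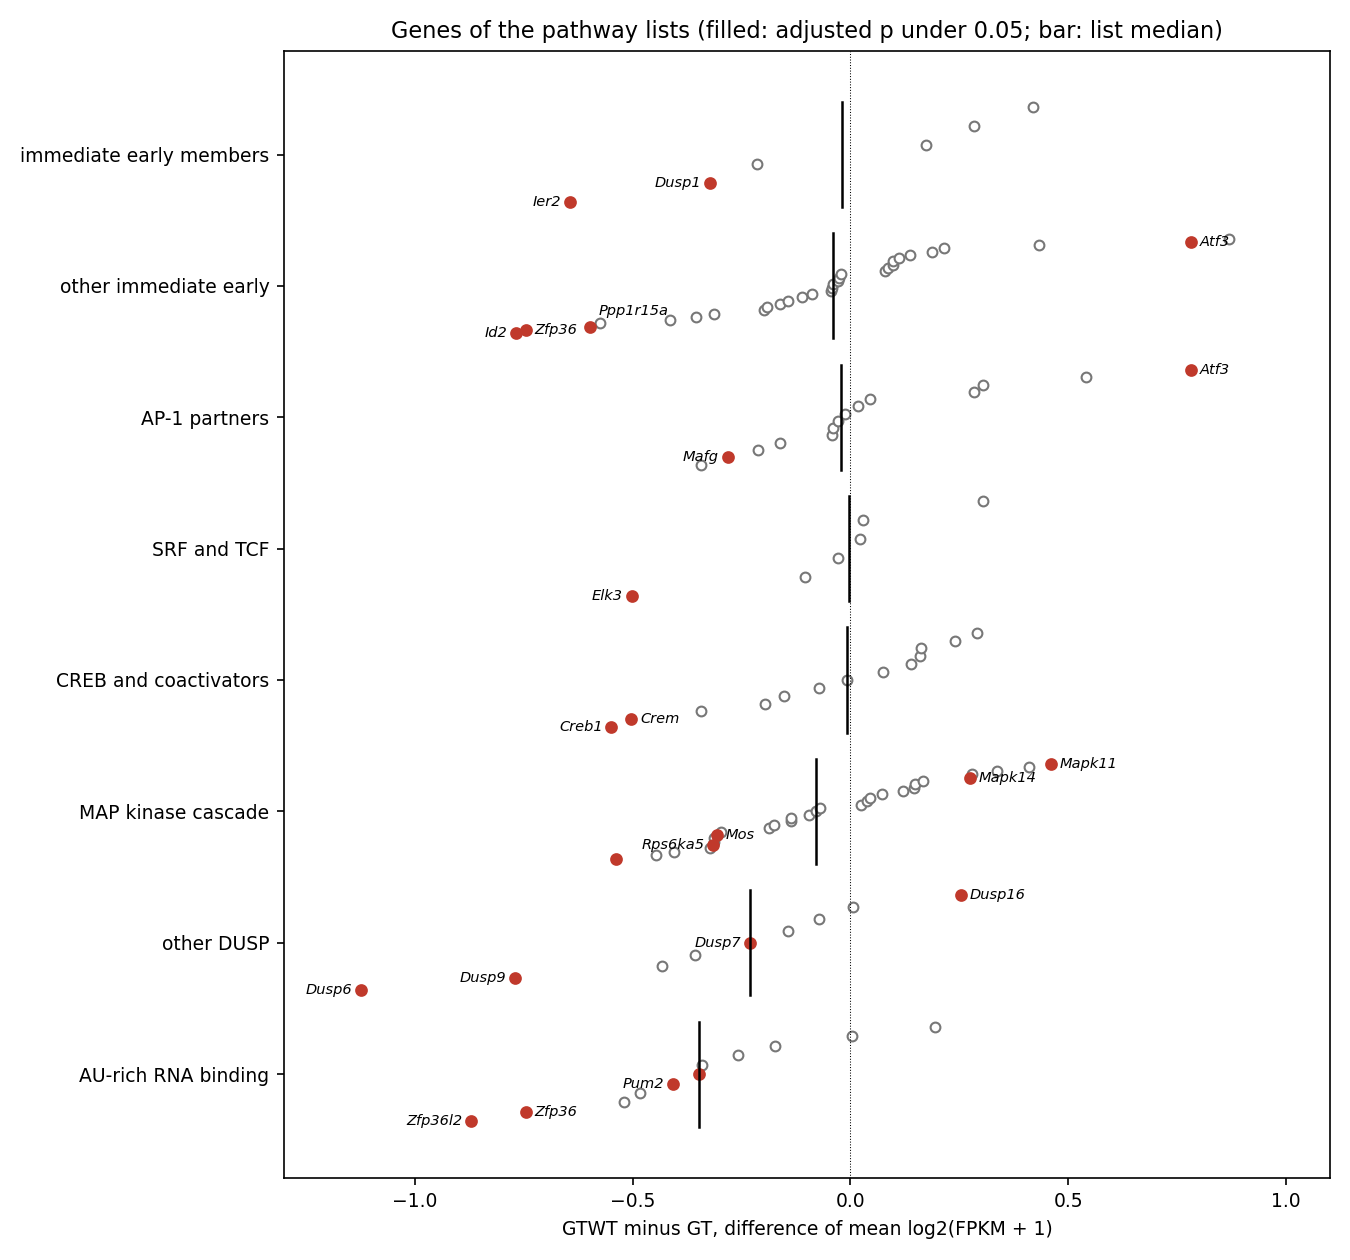
GTWT minus GT difference of mean log2(FPKM + 1) (horizontal axis) for every tested gene of the members and of 7 related lists (1 band each), with filled points for an adjusted p under 0.05, most of them named, and a bar at the list's median. The medians are -0.02 for the members, -0.23 for the other DUSP genes and -0.35 for the AU-rich RNA binding proteins.

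Because several immediate early genes are strong in follicle cells, markers of those cells were read beside them. Of 18 granulosa and cumulus markers, 5 passed the filter and Ptx3 was at 0 in every library. Their summed level was 120 to 131 FPKM in GTWT and 128 to 138 in GTD272, against 143 to 152 in GT libraries, the same order as Ier2. Nr5a2 made up 79.3% to 86.2% of each sum, and it fell by 0.27 in GTWT against GT (limma adjusted p = 0.00135). In GTD272 against GT it fell by 0.19 (limma adjusted p = 0.0392), a call lost in 12 of 18 alternatives (0.0505 to 0.109). Without Nr5a2 the sums were 19.2 to 27.0 in GTWT, 17.7 to 25.0 in GTD272 and 20.7 to 27.0 in GT, which overlapped. Fshr, Amh, Inha and Foxl2, all below the filter, stayed at or below 0.542 FPKM in GTWT, 0.831 in GTD272 and 0.942 in GT. Other markers of the list had signal in every library. Kitl was at 10.3 to 15.6 FPKM in GTWT, 11.2 to 15.4 in GTD272 and 12.4 to 15.6 in GT. Cyp19a1 was at 6.47 to 6.79 FPKM in GTWT, 4.04 to 5.82 in GTD272 and 3.36 to 6.88 in GT. Inhba and Nr5a1 were the remaining markers past the filter. Theca and stroma markers summed to 1.92 to 2.50 FPKM in GTWT, 1.83 to 3.24 in GTD272 and 1.66 to 2.55 in GT, with Acta2, Col1a2, Dcn and Lhcgr at 0, and 1 of 10 passed the filter. Blood and immune markers summed to 9.51 to 12.6 FPKM in GTWT, 9.83 to 12.3 in GTD272 and 9.72 to 14.9 in GT, with 8 of 11 at 0, Ptprc among them, and 1 (Pecam1) past the filter. The part of follicle cells in the member values was not tested.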

How the data were processed

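RNA was sequenced from 12 libraries of mouse oocytes, grouped by their titles. Per the labels, 150 bp paired reads were trimmed and aligned to mm10 with TopHat2 2.0.13, per the submitters' processing notes. FPKM values were computed and normalized by the authors with Cufflinks 2.2.1, per the labels, and Cuffdiff gave the authors' deposited table its p-values, as well as its q-values. The labels name both Smart-seq2 amplification and an RNeasy extraction, and both oocytes and lysed ovaries. The deposited header names stand 1 column left of the values, which was resolved with the authors' deposited log2 ratios (r of at least 0.975 between them and ratios computed from the columns).

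FPKM are not counts, so log2(FPKM + 1) was fitted with limma 3.58.1 in R 4.3.3 (trended variance) in 1 fit of all 12 libraries, for 11687 genes with at least 1 FPKM in at least 4 libraries, adjusted over all of them by Benjamini-Hochberg and called at an adjusted p under 0.05. A log2 difference on this scale understates changes of low genes. The 3 members below the filter were compared by exact two-sided permutation tests on mean FPKM. Depth as read totals is unknown. It was approximated from low values: of 88089 pairs of low values, 86.1% stood in whole ratios (ratios up to 5, log2 tolerance 0.02). The fit was tested on simulated data. Alternatives were a pseudocount of 0.1, no filter, quantile normalization, rescaling to equal sums without small RNA genes, the 2 compared groups alone, a replicate block, and each library left out.

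The members and gene lists were chosen with earlier results of these data known. Named genes are all members, Marf1, up to 4 called genes per list and comparison with the largest differences, and the 3 genes most alike to each member. Some genes that this rule gives are not reported here. Mapk14, Gdf9 and Oosp1 were named in addition after their values were seen. Promoters come from RefSeq (GRCm38) and transcripts from GENCODE M21. The promoters of Ier2 and Egr1 were not used here.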

Additional observations from a re-analysis of the deposited data

Results flagged for a closer look

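In 92 groups of 4 libraries, taken over the members and the named related genes, 3 had a library whose gap to its nearest neighbour took so much of the group's range that chance gives it in about 1 of 20 groups. At that rate, 3 of 92 groups is not more than chance gives. Ier5 stood at 0.697 FPKM (4 steps) in GT replicate 1, with the other GT libraries between 0 and 0.112 (at most 1 step). Dusp9 stood at 4.93 FPKM in GT replicate 3, with the other GT libraries between 7.46 and 7.92. Rps6ka5 stood at 7.41 FPKM in GTWT replicate 2, with the other GTWT libraries between 7.31 and 7.33, a range narrower than in the other groups.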

How the results depend on the processing

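Over the alternatives, 305 log2 differences of the 6 tested members kept direction and side of the threshold, 8 lost a call (Dusp1, GTWT minus GT), 7 gained one (Jund 6 times, GTWT minus GT, and Ier2 once, GTD272 minus GT) and 4 changed sign. The sign changes were all in Egr1, GTWT minus GTD272: 0.00079 after rescaling, and -0.12 to 0.028 with single libraries left out. Left-out libraries moved the members called from 1 to 3 in GTWT minus GT and from 0 to 1 in GTD272 minus GT, and left 0 in GTWT minus GTD272. Genes called in GTD272 minus GT (345 as reported) were 209 with no filter and 194 with a replicate block, and 110 to 375 with libraries left out. Genes called in GTWT minus GTD272 (288) were 184 with no filter, 124 in the 2 groups alone, 187 with a replicate block, and 114 to 305 with libraries left out. Genes called in GTWT minus GT (1940) were 1332 to 1925. The cause was not tested.

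Differences in mean FPKM of the low members changed sign with libraries left out: Ier5 ranged from -0.013 to 0.227 (GTWT minus GT), -0.105 to 0.171 (GTD272 minus GT) and -0.027 to 0.175 (GTWT minus GTD272), Ier3 from -0.042 to 0.261 and Jun from -0.155 to 0.010 (both GTD272 minus GT). With 3 libraries against 4, the exact p of Jun for GTWT against GTD272 was 0.0571 without any 1 GTWT library. For GTWT against GT it was 0.0286 without GT replicate 3, the only GT library at 0. Leaving that library out ends the overlap of these groups, and no lower p is possible for the libraries left.

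Same-numbered libraries did not deviate together (r from -0.222 to 0.211 over the 3 comparisons), so no pairing by number was visible. Whether they share mice or dishes cannot be read from this, and the labels do not say. The replicate block changed no call of a member. Depth limits Jun, Ier3 and Ier5 most, at no more than 5 steps a library.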
